A study of Mus musculus with 5 samples.

Results

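The 7 Nkx2 homeobox genes Nkx2-1, Nkx2-2, Nkx2-3, Nkx2-4, Nkx2-5, Nkx2-6 and Nkx2-9 were followed at the level of single CpGs in mouse embryonic stem (ES) cells, in 5 libraries. The members were defined by position, as the CpGs outside CCGG that lie in 6 regions of the mm9 build around these genes. The genes, and the lists of other genes below, were chosen with earlier results of these data known. Counts set beside shares of the genome are therefore descriptions and not tests of enrichment. They comprised 500 CpGs listed in at least 1 library, of 598336 such CpGs in the whole series (0.0836%). Nkx2-1 and Nkx2-9 share the region chr12:57628000-57725000, and each CpG there was given to the gene with the nearer start. Nkx2-4 lies in chr2:146900000-146920000, Nkx2-2 in chr2:146998000-147025000, Nkx2-3 in chr19:43680000-43695000, Nkx2-5 in chr17:26970000-26982000 and Nkx2-6 in chr14:69785000-69800000. Per gene, 94 CpGs belonged to Nkx2-1, 45 to Nkx2-9, 104 to Nkx2-4, 100 to Nkx2-2, 89 to Nkx2-3, 43 to Nkx2-5 and 25 to Nkx2-6.

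The assay was RRBS (reduced representation bisulfite sequencing), in which MspI cuts DNA at CCGG, short CpG-rich fragments are sequenced, and cytosines that survive bisulfite are read as methylated. A level here is the share of reads showing C among reads showing C or T. Each genotype had 1 library. The tested genotypes were Fbxl10 T/T, Ring1B -/-, Eed -/- and Ezh2 -/-, and WT was their control. The labels give strain C57BL/6J and passage 17 for Fbxl10 T/T and for WT, both grown in serum with LIF on inactivated fibroblast feeders that were depleted by plating. They give no strain, passage or feeder layer for the 3 Polycomb mutants, only serum with LIF, and they do not describe the T allele. With 1 library per genotype, genotype cannot be told apart from clone, culture or library, and for the Polycomb mutants also not from strain and sequencing depth. Every test below compares the reads of 2 libraries.

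NKX2 proteins are DNA-binding homeodomain factors that set the identity of ventral neural, thyroid, lung, gut, spleen and heart progenitors, and their genes are classic targets of Polycomb repression in ES cells. Polycomb repressive complex 2, with the subunits Eed and the methyltransferase Ezh2, methylates histone tails at unmethylated CpG islands, and in Polycomb repressive complex 1 Ring1B serves as the ubiquitin ligase. FBXL10, also called KDM2B, binds unmethylated CpG-rich DNA and brings a variant of that ligase complex to it. By its title, the study addresses how FBXL10 bears on the protection of Polycomb-bound genes from excess methylation.

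The sequences below show what was read at each gene and where. RefSeq promoter sequences of build GRCm38.p6 (250 bases before to 50 bases after the start) were located in the mm9 tables by their letters, and 4 of the 6 members with such a sequence were found. The starts lie at position 57637895 for Nkx2-1, 57714271 for Nkx2-9, 146911081 for Nkx2-4, all on the minus strand, and 43686815 for Nkx2-3 on the plus strand. The Nkx2-2 and Nkx2-5 promoters could not be placed, and Nkx2-6 is named only. The Nkx2-9 and Nkx2-4 promoters are printed whole because the 2 are the ones read deeply enough to test, at chr12:57714222-57714521 and chr2:146911032-146911331 on the minus strand. For the other genes a short stretch that the tables spell out is given on the plus strand. It was sought only in windows called as risen in Fbxl10 T/T below. Among the short stretches there, the one with the most Fbxl10 T/T reads was taken. Levels quoted from these stretches were thus picked by outcome. The stretches lie at chr12:57635684-57635707 for Nkx2-1, chr2:147020024-147020068 for Nkx2-2, chr19:43689121-43689153 for Nkx2-3, chr17:26975907-26975969 for Nkx2-5 and chr14:69792696-69792717 for Nkx2-6. Capitals mark the CpGs outside CCGG that had reads in both Fbxl10 T/T and WT.
Nkx2-9 promoter: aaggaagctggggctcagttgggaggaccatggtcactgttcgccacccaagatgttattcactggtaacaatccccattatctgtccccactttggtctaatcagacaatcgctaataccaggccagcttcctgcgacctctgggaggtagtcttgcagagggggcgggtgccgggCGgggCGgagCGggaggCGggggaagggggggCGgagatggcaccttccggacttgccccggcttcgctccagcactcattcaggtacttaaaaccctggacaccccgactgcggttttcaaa
Nkx2-4 promoter: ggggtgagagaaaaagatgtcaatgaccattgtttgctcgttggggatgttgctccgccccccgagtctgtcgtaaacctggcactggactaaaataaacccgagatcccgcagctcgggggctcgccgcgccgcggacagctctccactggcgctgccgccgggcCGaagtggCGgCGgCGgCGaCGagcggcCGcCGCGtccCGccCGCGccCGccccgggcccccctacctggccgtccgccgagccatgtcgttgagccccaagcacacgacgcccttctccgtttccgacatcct
Nkx2-1 stretch: agCGCGggtctgggttggCGcCGt
Nkx2-2 stretch: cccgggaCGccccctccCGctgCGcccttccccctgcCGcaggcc
Nkx2-3 stretch: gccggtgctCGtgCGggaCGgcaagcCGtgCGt
Nkx2-5 stretch: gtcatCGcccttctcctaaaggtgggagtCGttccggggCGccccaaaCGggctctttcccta
Nkx2-6 stretch: tccgggcaCGatctccCGactt
The Nkx2-4 promoter holds 38 CG in its 300 bases and the Nkx2-9 promoter holds 15, against a median of 7 over all 32851 promoters of the RefSeq table and of 23 over the promoters that could be placed. The Nkx2-9 promoter thus lies between these medians. Every capital CpG of the printed Nkx2-4 promoter was at 28.6 to 57.1% in Fbxl10 T/T and at 0 to 3.85% in WT.

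The 5 libraries differed in depth. At CpGs of the whole genome the Fbxl10 T/T table holds 27289499 reads, the 3 Polycomb mutants 1763598 to 1939239 each, and WT 42999787. At the Nkx2 CpGs this left Fbxl10 T/T with 6625 reads and a median of 17 per CpG. Ring1B -/- had 359 (median 1), Eed -/- 450 (median 2), Ezh2 -/- 316 (median 2) and WT 13912 (median 27). Intervals below are 95% Wilson intervals, and for differences Newcombe intervals. They cover counting error only, and they are too narrow because a read that spans several CpGs is counted at each. No RNA was measured, so the ES cell label could be set only against promoter methylation. Of 8 ES cell genes listed, the promoter of Klf4 was at 2.11% in Fbxl10 T/T and 1.003% in WT, and that of Sox2, too thinly read to test, at 30% of 20 reads in Fbxl10 T/T and 3.97% of 126 reads in WT. Of 5 fibroblast genes, which could mark feeder DNA, only the Col1a2 promoter was read, at 39.3% in Fbxl10 T/T and 4.55% in WT over 2 CpGs. The part of feeder cells in the values was not tested.

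The Fbxl10 T/T library carried more DNA methylation than the WT library at all 7 Nkx2 loci. Over the 364 CpGs read in both libraries, 57.1% of reads were methylated in Fbxl10 T/T (55.9 to 58.3%) and 7.94% in WT (7.50 to 8.41%), a difference of 49.2 points (47.9 to 50.4). Across the whole series, CpGs outside CCGG stood at 21.0% in Fbxl10 T/T and 13.6% in WT. The Nkx2 loci thus lay above the average of the Fbxl10 T/T library and below the average of the WT library.

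Locus by locus, Fbxl10 T/T levels lay within a narrow band and WT levels did not. Nkx2-1, the determinant of thyroid, lung and ventral forebrain, was at 56.1% in Fbxl10 T/T (53.5 to 58.7%) and 3.41% in WT (2.75 to 4.23%). Its closest relative Nkx2-4 was at 59.4% in Fbxl10 T/T (56.3 to 62.4%) and 1.51% in WT (1.14 to 2.00%), the lowest WT level of the 7 and, at 57.9 points, the widest difference. Nkx2-2, which patterns the ventral neural tube and pancreatic islets, was at 58.3% in Fbxl10 T/T and 7.22% in WT. Nkx2-9, its partner in the ventral neural tube, was at 62.2% in Fbxl10 T/T and 10.7% in WT. These 4 genes differed by 51.1 to 57.9 points.

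The other 3 genes differed by 27.8 to 42.9 points. Nkx2-3, a gene of gut mesenchyme and spleen, was at 47.9% in Fbxl10 T/T (44.99 to 50.8%) and 4.99% in WT, and its Fbxl10 T/T level was the lowest of the 7, with an interval apart from those of the other 6. Nkx2-5, the cardiac progenitor factor, was at 63.8% in Fbxl10 T/T (59.7 to 67.8%) and 24.9% in WT (22.7 to 27.4%). Nkx2-6, expressed in pharyngeal endoderm and early heart, was at 58.3% in Fbxl10 T/T (53.0 to 63.3%) and 30.4% in WT (26.8 to 34.3%). The smaller differences of Nkx2-5 (38.9 points) and Nkx2-6 (27.8 points) thus stood beside higher WT levels, whereas their Fbxl10 T/T intervals overlapped those of Nkx2-2 and Nkx2-4. Over the 7 genes, Fbxl10 T/T levels ran in the order Nkx2-3, Nkx2-1, Nkx2-6, Nkx2-2, Nkx2-4, Nkx2-9, Nkx2-5, and from Nkx2-1 upward the intervals of neighbours in that order overlapped.

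**Figure D1:**
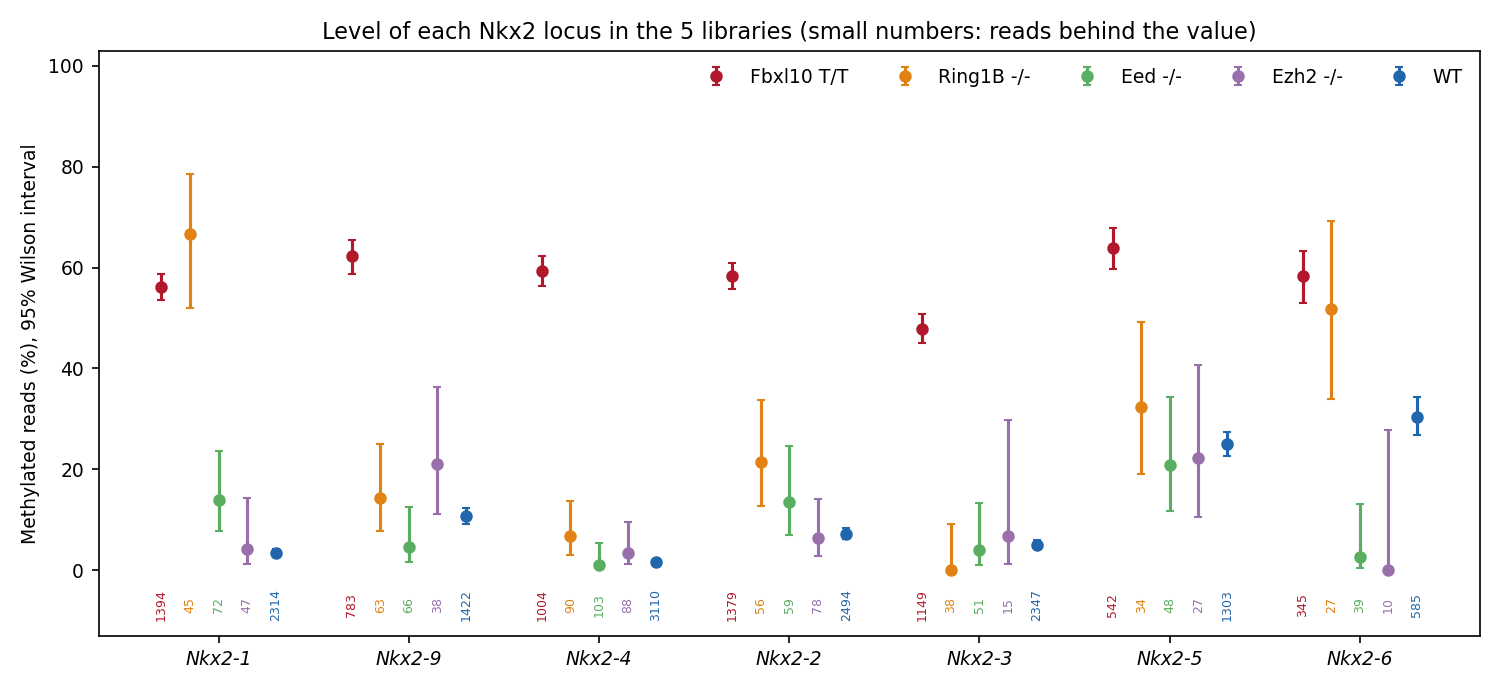
Methylated reads (%, vertical axis) at each Nkx2 locus in the 5 libraries, over the CpGs that each mutant shares with WT (WT points: CpGs shared with Fbxl10 T/T), with 95% Wilson intervals and the number of reads printed below each point. Fbxl10 T/T lies between 47.9 and 63.8% at all 7 loci and WT between 1.51 and 30.4%, while Ring1B -/- is near Fbxl10 T/T at Nkx2-1 and Nkx2-6.

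Windows of 1 kb with at least 5 CpGs and 30 reads in each library were tested with Fisher's exact test, adjusted by Benjamini-Hochberg over all windows of the genome, and counted as risen or fallen when the levels lay 20 points or more apart at an adjusted p under 0.05. Of 40 Nkx2 windows with a CpG, 24 could be tested, 23 rose in Fbxl10 T/T and 0 fell. Among all 20072 windows tested, 25.5% rose and 2.66% fell. Of the 17 Nkx2 windows under 10% in WT, 16 rose, against 21.3% of the 15931 windows of the genome under that level. The median difference of the 24 windows was 47.9 points.

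At Nkx2-1 all 4 tested windows rose. The window chr12:57637001-57638000, which holds the start, was at 47.7% in Fbxl10 T/T (229 of 480 reads) and 1.33% in WT (10 of 752 reads; Fisher's exact test, adjusted p = 2.63e-96). The next one downstream, chr12:57636001-57637000, had the widest gap of the 24 tested Nkx2 windows, with 79.3% in Fbxl10 T/T (119 of 150 reads) and 2.44% in WT (3 of 123 reads), a difference of 76.9 points (68.4 to 82.8). Farther downstream, chr12:57635001-57636000 was at 53.7% in Fbxl10 T/T and 2.22% in WT, and chr12:57634001-57635000 at 59.6% in Fbxl10 T/T and 6.56% in WT. The CpGs read at Nkx2-1 lie downstream of its start, the nearest with at least 10 reads in both libraries 218 bases away, and the placed promoter itself had 1 CpG with 1 read in each library.

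Nkx2-9 showed a like arrangement on the same chromosome. The window with its start, chr12:57714001-57715000, was at 36.7% in Fbxl10 T/T (18 of 49 reads) and 1.20% in WT (3 of 250 reads; Fisher's exact test, adjusted p = 1.27e-12). Downstream, chr12:57713001-57714000 was at 77.6% in Fbxl10 T/T and 4.95% in WT, and chr12:57712001-57713000 at 60.2% in Fbxl10 T/T and 11.1% in WT. Upstream, chr12:57715001-57716000 was at 60.9% in Fbxl10 T/T and 16.2% in WT. All 4 windows rose, and the start window had the lowest level of the 4 in both libraries. Of the 18 methylated Fbxl10 T/T reads in the start window, 14 were at the CpG 40 bases before the start (14 of 29 reads). Its CpGs 55 to 72 bases before the start had 1 of 5 reads methylated each.

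The rises at Nkx2-4 and Nkx2-2 on chromosome 2 were of similar size. Of the 3 Nkx2-4 windows, chr2:146910001-146911000 held 58 CpGs, the most of any Nkx2 window, and was at 64.4% in Fbxl10 T/T (381 of 592 reads) and 1.59% in WT (33 of 2069 reads; Fisher's exact test, adjusted p = 1.45e-258). The start window chr2:146911001-146912000 was at 46.0% in Fbxl10 T/T and 1.59% in WT, and chr2:146909001-146910000 was at 63.3% in Fbxl10 T/T and 0.865% in WT. At Nkx2-2, chr2:147009001-147010000 was at 65.7% in Fbxl10 T/T and 1.54% in WT, and chr2:147010001-147011000 at 65.1% in Fbxl10 T/T and 0.866% in WT. The following window, chr2:147011001-147012000, was at 70.7% in Fbxl10 T/T and 7.91% in WT, so 3 neighbouring windows had risen to like levels. The window chr2:147020001-147021000, with 31 CpGs, was at 49.4% in Fbxl10 T/T and 1.26% in WT. Only chr2:147008001-147009000 began above 10% in WT, with 61.3% in Fbxl10 T/T and 28.9% in WT, and it rose by 32.3 points. Nkx2-2os, an antisense gene, overlaps Nkx2-2 in the RefSeq table, so methylation there cannot be assigned to either gene alone.

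Nkx2-3 held the 1 tested Nkx2 window that was not called. Its start window, chr19:43686001-43687000, was at 12.2% in Fbxl10 T/T (6 of 49 reads, 5.73 to 24.2%) and 0.833% in WT (1 of 120 reads), with p = 0.00662 after adjustment (Fisher's exact test) but a gap of 11.4 points (3.91 to 23.4), under the 20 asked for. Of the 6 CpGs there, the deepest 3 lie 111 to 130 bases after the start and had 3 of 15, 2 of 12 and 1 of 15 methylated reads in Fbxl10 T/T, against 0 of 27, 0 of 27 and 1 of 27 in WT. The 3 other tested windows of the gene rose. They were at 51.5% in Fbxl10 T/T and 7.05% in WT upstream (chr19:43685001-43686000), at 41.6% in Fbxl10 T/T and 4.06% in WT in chr19:43689001-43690000, and at 60.5% in Fbxl10 T/T and 4.38% in WT in chr19:43690001-43691000. The start window of Nkx2-3 thus had the lowest Fbxl10 T/T level of the locus, on 49 reads. Low single CpGs were also found downstream, at 10.5% in Fbxl10 T/T (2 of 19 reads) and 1.82% in WT 2381 bases after the start, and at 13.3% in Fbxl10 T/T (2 of 15 reads) and 4.35% in WT 2570 bases after it.

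Nkx2-5 and Nkx2-6 began from higher WT levels and rose to a like level. At Nkx2-5, chr17:26975001-26976000 was at 64.9% in Fbxl10 T/T (126 of 194 reads) and 18.7% in WT (68 of 363 reads), and chr17:26976001-26977000 at 65.8% in Fbxl10 T/T and 18.2% in WT. The remaining one, chr17:26981001-26982000, was at 67.0% in Fbxl10 T/T and 36.7% in WT when reads were summed, but the mean over its 8 CpGs differed by 8.37 points, which ends that call. At Nkx2-6 the only window with enough CpGs, chr14:69792001-69793000, was at 53.7% in Fbxl10 T/T (117 of 218 reads) and 15.0% in WT (68 of 452 reads). Their start sites could not be placed, so the position of these windows relative to the promoters is not given.

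The other 16 windows had at most 4 CpGs each and were not tested. In 9 of them the level was higher in Fbxl10 T/T and in 7 it was lower. The 9 higher ones were at 0 to 41.7% in WT, and include chr19:43681001-43682000 upstream of Nkx2-3, at 64.9% in Fbxl10 T/T (37 of 57 reads) and 3.17% in WT (4 of 126 reads). The 7 lower ones were at 67.6 to 100% in WT, among them chr12:57685001-57686000 between Nkx2-1 and Nkx2-9, at 56.7% in Fbxl10 T/T and 67.6% in WT. Closest to equal was chr19:43694001-43695000, at 88.9% of 9 reads in Fbxl10 T/T and 89.3% of 28 reads in WT. Windows without enough CpGs thus divided by their WT level, but a window near 100% in WT has little room to be higher. In chr12:57629001-57630000 each library had 1 read at the shared CpG.

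**Figure D2:**
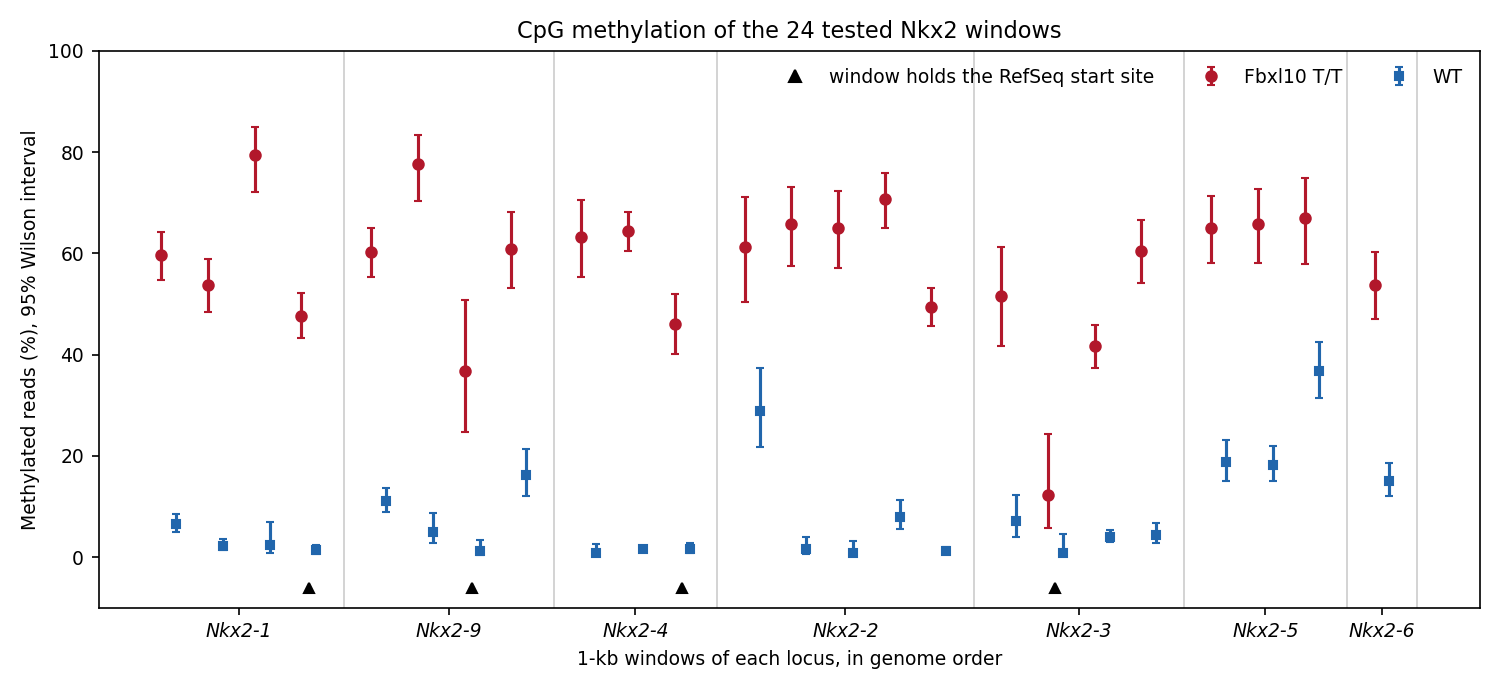
Methylated reads (%, vertical axis) in the 24 tested 1-kb windows of the 7 loci, in genome order within each locus, with 95% Wilson intervals; circles are Fbxl10 T/T, squares WT, and triangles mark windows that hold a placed start. In 23 windows Fbxl10 T/T lies 30.2 to 76.9 points above WT, and in the start window of Nkx2-3 it lies 11.4 points above.

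Set among all windows that rose, the Nkx2 windows reached a like level. The 16 Nkx2 windows that were under 10% in WT and rose had a median of 60.1% in Fbxl10 T/T (quartiles 49.0 and 65.2%). The 3382 other windows of that kind had a median of 57.2% (quartiles 45.6 and 65.8%). The Nkx2 median lay between the quartiles of the other windows.

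**Figure D3:**
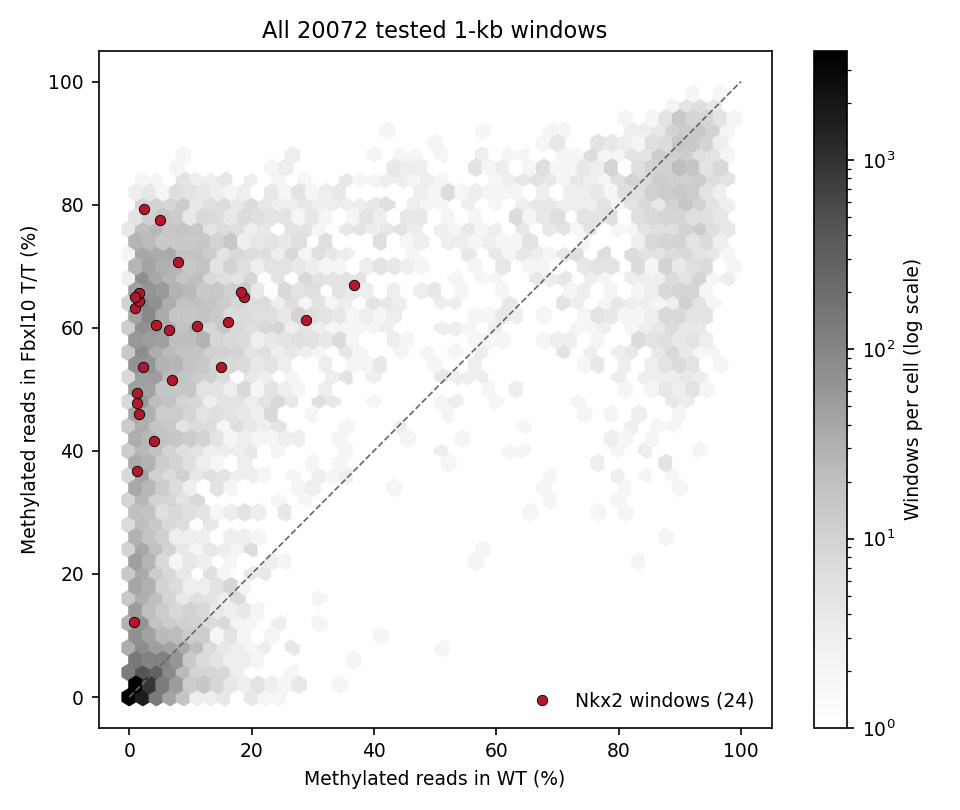
Methylated reads in Fbxl10 T/T (%, vertical axis) against WT (%, horizontal axis) for all 20072 tested windows, shaded by the number of windows per cell on a log scale, with the 24 Nkx2 windows as dots and equality as the dashed line. The dots sit in the column of windows that are low in WT and at 36.7 to 79.3% in Fbxl10 T/T, apart from 1 dot at 12.2% and the few with WT levels above 10%.

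Single CpGs gave the same picture at finer scale. Of 233 Nkx2 CpGs with at least 10 reads in both libraries, 197 rose by at least 25 points in Fbxl10 T/T and 3 fell (Fisher's exact test, adjusted over all 368305 CpGs tested, of which 16.5% rose and 4.35% fell). All 43 tested Nkx2-4 CpGs rose, as did 41 of 45 at Nkx2-1, 25 of 29 at Nkx2-9, 34 of 41 at Nkx2-2, 38 of 49 at Nkx2-3, 10 of 15 at Nkx2-5 and 6 of 11 at Nkx2-6. Of the 182 CpGs under 10% in WT, 167 rose, and their Fbxl10 T/T levels had a median of 57.1% with quartiles of 45% and 68.3%. Over the whole series, 17.2% of the 279952 tested CpGs under 10% in WT rose. Only 1 of the 182 remained under 10% in Fbxl10 T/T, and 120 were at 50% or more. Of the 279952 CpGs of the whole series, 217691 were under 10% in Fbxl10 T/T and 34783 at 50% or more.

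Few CpGs were fully methylated in Fbxl10 T/T. The highest level among the 182 was 92.3%, at a Nkx2-9 CpG 1107 bases after the start (24 of 26 reads in Fbxl10 T/T and 5 of 61 in WT). The lowest was 6.67%, at the Nkx2-3 CpG 130 bases after the start. CpGs a few bases apart could differ widely. In the printed Nkx2-2 stretch the 4 capital CpGs were, from left to right, at 16.3%, 23.3%, 32.6% and 58.0% in Fbxl10 T/T, and at 1.49%, 0%, 2.01% and 1.18% in WT. In the printed Nkx2-1 stretch they were at 56.3%, 50%, 52.9% and 67.6% in Fbxl10 T/T, and at 1.35%, 1.32%, 1.32% and 3.95% in WT. The 5 of the Nkx2-3 stretch were at 41.4 to 51.7% in Fbxl10 T/T and at 1.79 to 5.36% in WT. In the Nkx2-5 stretch the 4 were at 51.4 to 74.2% in Fbxl10 T/T and 14.1 to 32.6% in WT, and in the Nkx2-6 stretch the 2 were at 47.1 and 52.9% in Fbxl10 T/T and both at 12.5% in WT. Levels thus increased from left to right across the Nkx2-2 stretch, but not across the Nkx2-1 stretch. The 4 Nkx2-2 CpGs had 43, 43, 92 and 50 Fbxl10 T/T reads, so they do not all rest on the same reads.

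CpGs that were already methylated went the other way. The 8 tested CpGs at 70% or more in WT lie at Nkx2-2, Nkx2-5 and Nkx2-6 and had a median of 62.3% in Fbxl10 T/T and 88.0% in WT, and all 8 were lower in Fbxl10 T/T. The fall passed the test at 3 of them. At Nkx2-6, position 69791958 was at 60.0% in Fbxl10 T/T (18 of 30 reads) and 90.9% in WT (50 of 55), and position 69791999 at 51.2% in Fbxl10 T/T (21 of 41) and 79.6% in WT (43 of 54). At Nkx2-2, position 147001239 was at 58.8% in Fbxl10 T/T (20 of 34) and 87.2% in WT (34 of 39). Over the whole series, 52080 tested CpGs were at 70% or more in WT, with a median of 74.1% in Fbxl10 T/T and 89.3% in WT, and 14582 of them fell. CpGs on both sides of the range thus lay closer together in Fbxl10 T/T than in WT. They were sorted by their WT level, however, which builds in part of such a shift, and its size was not tested. The 2 windows that hold these 3 CpGs, at 54.9% in Fbxl10 T/T and 85.3% in WT for Nkx2-6 and at 61.5% in Fbxl10 T/T and 88.2% in WT for Nkx2-2, had 2 CpGs each and were not tested.

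The level at the start was compared with that around it for the 4 genes whose start was placed, a description chosen after the values were seen. Within 250 bases of the start, 45.6% of reads were methylated in Fbxl10 T/T (41.6 to 49.7%) and 1.49% in WT. Between 250 and 500 bases the levels were 51.8% in Fbxl10 T/T and 0.787% in WT, between 500 and 1000 bases 67.2% in Fbxl10 T/T and 2.54% in WT, and between 1000 and 2000 bases 64.9% in Fbxl10 T/T and 7.96% in WT. From 2000 to 5000 bases they were 51.7% in Fbxl10 T/T and 4.17% in WT. The interval of the nearest bin thus did not overlap those from 500 to 2000 bases. The bins hold different genes, however. Nkx2-4 supplied 287 of the 314 Fbxl10 T/T reads from 500 to 1000 bases, and Nkx2-9 704 of the 1144 from 1000 to 2000. Distance therefore cannot be told apart from gene in these pooled levels.

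The shape over the pooled bins was not shared by the 4 genes alike. Nkx2-4 was at 48.1% in Fbxl10 T/T within 250 bases and at 66.7% between 250 and 500, whereas Nkx2-1 was at 56.4% in the nearest bin and 43.8% in the next. Nkx2-9 was at 36.7% in Fbxl10 T/T within 250 bases (18 of 49 reads) and at 64.2% from 1000 to 2000. At 796 other placed starts the promoter was under 10% in WT and rose. Around them, Fbxl10 T/T levels were 52.7%, 55.0%, 54.2%, 55.4% and 44.2% over the same 5 bins. Picking starts by a risen promoter builds in a high nearest bin. The Nkx2-1 and Nkx2-3 promoters were not tested, so the 2 shapes cannot be compared. Around all 6338 other placed starts under 10% in WT, levels within 250 bases were 6.72% in Fbxl10 T/T and 1.64% in WT. From 2000 to 5000 bases they were 29.1% in Fbxl10 T/T and 18.3% in WT. Within 250 bases, the Nkx2 level leans on Nkx2-4, which supplied 378 of the 577 Fbxl10 T/T reads.

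**Figure D4:**
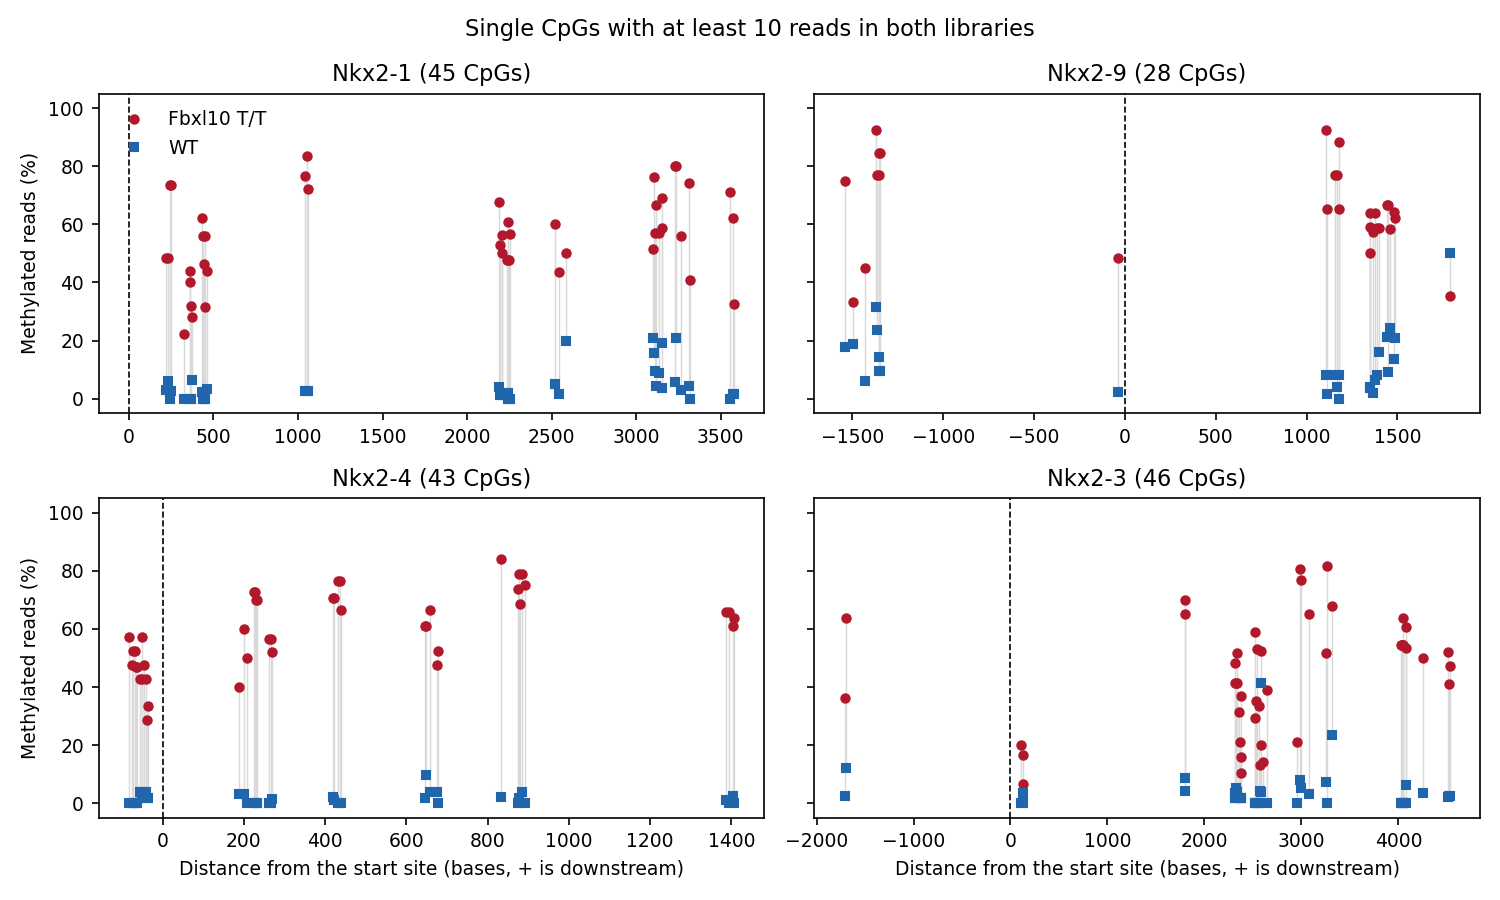
Methylated reads (%, vertical axis) at each CpG within 5000 bases with at least 10 reads in both libraries, against distance from the start (bases, positive downstream) for the 4 genes with a placed start; circles are Fbxl10 T/T and squares WT, and a grey line joins the 2 values of a CpG. At Nkx2-3 the 3 CpGs near the start are at 6.67 to 20% in Fbxl10 T/T, while the circles of the other panels lie at 22.2% or more.

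Promoters as printed in RefSeq gave 2 tests among the members. They use the same CpGs and reads as the start windows of Nkx2-9 and Nkx2-4 above, so they add no separate observation. The Nkx2-9 promoter was at 36.7% in Fbxl10 T/T and 1.20% in WT (Fisher's exact test, adjusted p = 2.28e-12), and the Nkx2-4 promoter at 46.0% in Fbxl10 T/T and 1.59% in WT (adjusted p = 5.07e-64, the same exact test). Both rose, where 14% of the 6625 promoters tested rose and 0.136% fell. The 5 promoters outside the family whose levels in these 2 libraries came closest to the mean of the pair, 41.4% in Fbxl10 T/T and 1.39% in WT, were those of Pde11a, Tcerg1l, Sox12, Gm51919 and Metrnl, with root mean square differences of 0.248 to 0.421 points among 6623 promoters. Likeness over 2 libraries says no more than that these levels are close.

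Other genes of the NK family and of the pathways around NKX2 were read from lists of known genes. Of 7 other NK-family homeobox genes, 4 had a promoter placed and tested, and all 4 rose, where 14% of the 6625 promoters tested rose. Nkx6-2, an oligodendrocyte and neural tube factor, was at 88.4% in Fbxl10 T/T and 4.76% in WT. Nkx1-1 was at 65.6% in Fbxl10 T/T and 1.17% in WT, Nkx3-2, a skeletal and gut factor, at 51.2% in Fbxl10 T/T and 2.42% in WT, and Nkx6-1, a beta cell and motor neuron factor, at 22.3% in Fbxl10 T/T and 1.97% in WT. The median difference of the 4 was 56.6 points, beside 0.0215 over all promoters tested.

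Of 23 regulators and partners of NKX2 factors, 7 promoters could be tested and 4 rose, beside 14% of the 6625 promoters tested. Pax6, which opposes Nkx2-2 in the neural tube, was at 62.7% in Fbxl10 T/T and 3.74% in WT, and Gata5, a cardiac and endodermal factor, at 59.4% in Fbxl10 T/T and 2.55% in WT. Olig2, a motor neuron and oligodendrocyte factor, was at 58.5% in Fbxl10 T/T and 2.73% in WT, and Tlx1, a spleen determinant, at 61.6% in Fbxl10 T/T and 12.4% in WT. Isl1, a motor neuron and cardiac progenitor factor, was at 25.4% in Fbxl10 T/T and 8.38% in WT, which misses the 20 points. Foxa2, the floor plate and endoderm factor, had 0 of 414 methylated reads in Fbxl10 T/T, which allows up to 0.725%, and 0.973% in WT. Hhex, a thyroid and liver bud factor, was at 0.240% in Fbxl10 T/T and 0.545% in WT. The promoters of Foxa2 and Hhex thus carried almost no methylation in either library, beside the 4 that rose.

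In the Polycomb mutants the reads were few, and the widest gap from WT was that of Nkx2-1 in Ring1B -/-. Over the CpGs shared with WT, the 7 loci together were at 23.2% in Ring1B -/- (82 of 353 reads, 19.1 to 27.9%) and 8.99% in WT, a difference of 14.2 points (10.1 to 18.96). That difference was 6.28 points at CpGs with at least 5 reads (22 CpGs) and 0.824 points at those with at least 10 reads (7 CpGs), settings that leave no CpG of Nkx2-1. In Eed -/- they were at 7.99% (35 of 438 reads), against 8.81% in WT, a difference of -0.814 points (-3.10 to 2.17). In Ezh2 -/- they were at 8.25% (25 of 303 reads), against 9.65% in WT, a difference of -1.40 points (-4.12 to 2.31). The 49.2 points of Fbxl10 T/T lie outside all 3 of these intervals.

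The Ring1B -/- difference was widest at Nkx2-1, which held 30 of the 82 methylated reads of the 7 loci. There, 30 of 45 reads were methylated in Ring1B -/- (66.7%, 52.1 to 78.6%), against 3.29% in WT over the same 27 CpGs. No CpG of the locus had more than 3 reads in Ring1B -/-. Its 28 listed CpGs fell in 9 separate stretches, of which 7 were at 50% or more, and the deepest CpGs of the 9 summed to 18 reads. Methylated reads were found in windows 3 kb apart, with 16 of 19 in chr12:57634001-57635000 and 14 of 21 in the start window chr12:57637001-57638000. In that start window, 6 of 34 reads were methylated in Eed -/-, 0 of 22 in Ezh2 -/-, which allows up to 13.6%, and 1.33% in WT over its CpGs shared with Fbxl10 T/T. The Nkx2-1 methylation in Ring1B -/- thus did not rest on a single spot, but it rests on few molecules of 1 library.

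Nkx2-1 was also compared at CpGs read in all 5 libraries. Over 14 such CpGs, levels were 54.5% in Fbxl10 T/T, 71.4% in Ring1B -/- (15 of 21 reads, 50.04 to 86.2%), 12.2% in Eed -/- (5 of 41), 2.56% in Ezh2 -/- (1 of 39) and 3.40% in WT. Ring1B -/- and Fbxl10 T/T overlapped and both lay above the other 3. Between those 2 mutants the direct difference at Nkx2-1, over 26 shared CpGs, was -10.3 points (-23.0 to 4.85), with 55.6% in Fbxl10 T/T and 65.9% in Ring1B -/-.

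The other loci differed less in Ring1B -/-. Nkx2-3 had 0 of 38 methylated reads in Ring1B -/-, which allows up to 7.89%, and 5.27% in WT. Nkx2-4 was at 6.67% in Ring1B -/- and 2.04% in WT, but the difference turned to -1.16 points with at least 5 reads per CpG and to -0.915 points with at least 10. Nkx2-2 was at 21.4% in Ring1B -/- and 10.7% in WT, a difference of 10.7 points (1.80 to 23.2). Nkx2-9 was at 14.3% in Ring1B -/- and 9.68% in WT, and Nkx2-5 at 32.4% in Ring1B -/- and 22.3% in WT. Nkx2-6 was at 51.9% in Ring1B -/- (14 of 27 reads, 34.0 to 69.3%) and 36.5% in WT, and as a mean over its 7 CpGs it differed by -5.05 points. The intervals of the difference span 0 at Nkx2-3, Nkx2-5, Nkx2-6 and Nkx2-9. Against Fbxl10 T/T, Nkx2-6 differed by 3.28 points (-15.8 to 22.7), with 55.1% in Fbxl10 T/T and 51.9% in Ring1B -/-, so the reads do not separate those mutants there.

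Nkx2-6 had few methylated reads in Eed -/- and none in Ezh2 -/-. It was at 2.56% in Eed -/- (1 of 39 reads, 0.454 to 13.2%), against 29.7% in WT, and had 0 of 10 reads in Ezh2 -/-, which allows up to 30%, against 32.6% in WT. At the 2 Nkx2-6 CpGs read in all 5 libraries, Eed -/- had 0 of 13 reads (up to 23.1%) and Ezh2 -/- 0 of 8 (up to 37.5%), against 14.1% in WT, so neither could be separated from WT there. Much of the WT level set against Ezh2 -/- came from the CpG at position 69791958, with 50 of 55 reads in WT and 1 read in Ezh2 -/-. Eed -/- had no read there, so that CpG does not enter its comparison. Much of the WT level set against Eed -/- came from position 69791999, with 43 of 54 reads in WT and 1 read in Eed -/-. Nkx2-1 was at 13.9% in Eed -/- (10 of 72 reads), against 2.90% in WT, a difference of 10.99 points (4.73 to 20.8). With at least 5 reads per CpG, 2 CpGs of Nkx2-1 remained and its Eed -/- difference turned to -1.68 points. In Eed -/-, positions 57635601 and 57635608 had 2 of 2 methylated reads each. In the region of Nkx2-1 and Nkx2-9, Eed -/- also had methylated reads outside CpG. At cytosines followed by C these were 13 of 197 reads (6.60%). Before T they were 11 of 141 (7.80%) and before A 1 of 127. Over the whole series the Eed -/- shares were 2.84%, 2.73% and 2.93%. The part of such reads in the Nkx2-1 level was not tested.

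Only a few Nkx2 windows could be tested in the Polycomb mutants. In Ring1B -/- none of 2 was called by Fisher's exact test, where 1.3% of 8663 windows rose and 0.554% fell. Of these, chr2:146910001-146911000 of Nkx2-4 was at 15.4% in Ring1B -/- (6 of 39 reads) and 2.06% in WT, with an exact-test adjusted p of 0.00484 but 13.3 points, under the 20 asked for. In Eed -/- none of 3 was called, where 0.352% of 9091 windows rose and 0.671% fell, and the Nkx2-1 start window at 17.6% in Eed -/- and 1.42% in WT had an exact-test adjusted p of 0.000990 at 16.2 points. In Ezh2 -/- the 1 window tested, chr2:147020001-147021000 of Nkx2-2, had 0 of 50 methylated reads, which allows up to 6%, against 1.51% in WT, where 0.211% of 8513 windows rose and 0.787% fell. With windows of at least 3 CpGs and 20 reads, the Nkx2-1 start window was called in Ring1B -/-, with 66.7% against 1.06% in WT (Fisher's exact test, adjusted p = 2.70e-16).

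Set directly against each Polycomb mutant, Fbxl10 T/T was higher in each window that could be tested. Against Ring1B -/- this was 2 of 2 windows, where 20.8% of all windows rose, with 60.97% in Fbxl10 T/T and 9.80% in Ring1B -/- at chr12:57712001-57713000 of Nkx2-9, and 59.3% in Fbxl10 T/T and 15.4% in Ring1B -/- at chr2:146910001-146911000 of Nkx2-4. Against Eed -/- it was 3 of 3, where 22.1% rose. The Nkx2-1 start window was at 46.9% in Fbxl10 T/T and 17.6% in Eed -/-, while the Nkx2-9 window was at 60.97% in Fbxl10 T/T and 0 of 43 reads in Eed -/- (up to 6.98%) and the Nkx2-4 window at 60.0% in Fbxl10 T/T and 0 of 31 reads in Eed -/- (up to 9.68%). Against Ezh2 -/- it was 1 of 1, where 21.7% rose, with 48.3% in Fbxl10 T/T and 0 of 50 reads in Ezh2 -/- at chr2:147020001-147021000. None of the Nkx2-1 windows could be tested directly against Ring1B -/-, where the locus levels overlapped. In the promoter lists, no NK-family gene and no regulator was called in any Polycomb mutant against WT, with 2 and 1 promoters tested in Ring1B -/-, 3 and 4 in Eed -/-, and 3 and 3 in Ezh2 -/-. Among all promoters tested, Ring1B -/- had 0.603% risen and 0.172% fallen, Eed -/- 0.37% risen and 0.247% fallen, and Ezh2 -/- 0.09% risen and 0.135% fallen.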

How the data were processed

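RRBS tables of 5 mouse ES cell libraries, 1 per genotype label, were used as deposited. Per the submitters' processing notes, BSMAP 2.74 and build mm9 were used; trimming and removal of duplicates are not given in the sources used here. Per the file headers, each row is a cytosine with deposited counts of reads showing C and reads showing C or T, expected counts that the authors scaled for variants seen on the opposite strand, and a fraction, the ratio of the first to the expected counts. CpGs are listed on the plus strand. CpGs inside CCGG, where MspI cuts, were left out of the main values, as was the Y chromosome.

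Levels were computed from raw counts summed over CpGs with at least 1 read in both libraries. Windows of 1 kb and promoters needed 5 CpGs and 30 reads in each library, and single CpGs 10 reads. Fisher's exact test was two-sided and computed with numba 0.67.0 in Python 3.11.15 (numpy 2.4.6, pandas 2.3.3), with scipy 1.17.1 as a check. It was adjusted by Benjamini-Hochberg over all features of the genome on the 19 autosomes and X. Calls needed 20 points (single CpGs 25) and an adjusted p under 0.05. At 30 reads a level is known only coarsely, and 1 library per genotype gives no spread between cultures. The test was also run on simulated data.

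RefSeq promoters of GRCm38.p6 were placed in the mm9 tables by letters. A run of 16 letters proposed a place and at least 40 known letters had to match without exception, which placed 9744 of 32851 promoters (8649 genes). No coordinates were moved between builds. Members, gene lists and tests were chosen with earlier results of these data known. Windows were named by a rule: the start window, then up to 4 with the widest difference in Fbxl10 T/T, and calls of the other mutants. Alternatives were CCGG kept, other read and CpG minimums, means over CpGs, expected counts, the deepest CpGs left out, CpGs in all 5 libraries, shifted windows and other thresholds.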

Additional observations from a re-analysis of the deposited data

Results flagged for a closer look

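Signals outside the CpGs used above lay above the WT level at the Nkx2 regions in several libraries. CpGs inside CCGG, which MspI cuts, showed 70% methylated reads for Fbxl10 T/T, 53.5% for Ring1B -/-, 46.6% for Eed -/- and 49.0% for Ezh2 -/-, beside 36.3% for WT. Over the whole series the 4 mutants had 47.5 to 50.7% at such CpGs and WT had 46.3%.

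Some contexts outside CpG also had more methylated reads than WT in the Nkx2 regions, and others did not. The CC cytosines had 0.680% methylated reads for Fbxl10 T/T, 2.18% for Ring1B -/-, 2.82% for Eed -/- and 1.65% for Ezh2 -/-, beside 0.383% for WT. The CT cytosines had 0.515% for Fbxl10 T/T, 2.39% for Ring1B -/-, 2.93% for Eed -/- and 0.746% for Ezh2 -/-, beside 0.846% for WT. A single CT cytosine of Nkx2-4, at position 146910668, supplied 41 of the 102 methylated CT reads in WT. It also supplied 9 of the 35 in Fbxl10 T/T, so the CT levels of these libraries lean on it. In Eed -/-, 13 of the 18 methylated CC reads and 11 of the 14 methylated CT reads lay in the region of Nkx2-1 and Nkx2-9. The CA cytosines had 0.541% for Fbxl10 T/T and for Eed -/-, 1.18% for Ring1B -/- and 1.84% for Ezh2 -/-, beside 0.605% for WT. Over the whole series CC cytosines had 0.659% for Fbxl10 T/T, 2.22 to 2.84% for the 3 Polycomb mutants and 0.718% for WT. There, CT cytosines had 0.486% for Fbxl10 T/T, 1.97 to 2.73% for the 3 Polycomb mutants and 0.699% for WT, and CA cytosines 0.966% for Fbxl10 T/T, 2.07 to 2.93% for the 3 Polycomb mutants and 1.85% for WT. At CC cytosines the 3 shallow libraries thus lay above the 2 deep ones, in the Nkx2 regions and over the whole series, and the part of such reads in the CpG levels was not tested.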

How the results depend on the processing

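No paired analysis was possible because each genotype had 1 library. Of 210 values of single Nkx2 windows in Fbxl10 T/T against WT under the other settings, 208 kept their side of the threshold and all were above 0 (6.60 to 81.3 points). The exceptions were the Nkx2-5 window named above with means over CpGs and, called at 10 points, the Nkx2-3 start window. Of the 23 windows called, 19 were tested at 5 reads per CpG and 16 at 10 reads, and all of these were called. Limited to CpGs in all 5 libraries, 7 windows and 1 promoter rose, since no others could be tested; at 10 reads per CpG 1 promoter rose. With CCGG kept, 5 single CpGs fell. The Fbxl10 T/T difference over all Nkx2 CpGs was 44.1 points with CCGG kept, 46.6 as a mean over CpGs and 45.8 at CpGs in all 5 libraries.

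The Polycomb mutants depended on the settings. In Ring1B -/-, 1 window rose with CCGG kept, 1 with 3 CpGs and 20 reads (both the Nkx2-1 start window) and 1 at 10 points (Nkx2-4). In Eed -/-, 1 rose with CCGG kept and 1 at 10 points (both the Nkx2-1 start window). The overall Ring1B -/- difference was 6.28 points at 5 reads per CpG and 0.824 at 10 reads, where 22 and 7 CpGs remained. In Eed -/- it was 3.60 with CCGG kept, -5.68 at 5 reads and -4.42 at CpGs in all 5 libraries, and in Ezh2 -/- 4.65 with CCGG kept and -4.14 at 5 reads. Nkx2-4 in Ring1B -/- turned to -1.16 points at 5 reads and -0.915 at 10 reads, and Nkx2-1 in Eed -/- to -1.68 at 5 reads. For these reversals fewer CpGs entered (6, 4 and 2). Direct windows higher in Fbxl10 T/T numbered, with CCGG kept, 4 against Ring1B -/-, 7 against Eed -/- and 6 against Ezh2 -/-, and the same numbers with 3 CpGs and 20 reads. At 5 reads per CpG they were 1, 1 and 0, at 10 reads 0, 0 and 0, at CpGs in all 5 libraries 1, 1 and 0, and with shifted windows 2 against Ezh2 -/-. Equal numbers did not mean the same windows. Against Eed -/-, the Nkx2-1 start window was called with 3 CpGs and 20 reads but not with CCGG kept. A locus of under 50 reads cannot resolve differences of some 10 points, and with 1 library per genotype no setting measures variation between cultures.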

Other observations

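Among 780 cytosines outside CpG in the Nkx2 regions with at least 10 reads in both Fbxl10 T/T and WT, 5 had 20% or more methylated reads in either library, a threshold chosen after the values were seen. The highest was a CT cytosine on the minus strand of chromosome 2 at position 146910668, 413 bases downstream of the Nkx2-4 start. It had 9 of 17 methylated reads in Fbxl10 T/T (52.9%) and 41 of 87 in WT (47.1%). The CpGs of the same window were at 64.4% in Fbxl10 T/T and 1.59% in WT. At a CC cytosine at position 57712805 of chromosome 12, downstream of the Nkx2-9 start, 9 of 28 reads were methylated in Fbxl10 T/T and 3 of 43 in WT.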
